A study of Mus musculus with 12 samples.

Results

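The glucagon signal to the liver runs through a short chain of proteins, and the messenger RNAs of 10 genes along it were followed here. They are the receptor gene Gcgr, the protein kinase A genes Prkaca and Prkar1a, the transcription factor genes Creb1 and Crem, the coactivator gene Crtc2, the kinase gene Sik1, the target gene Nr4a1 and the phosphodiesterase genes Pde4b and Pde4d. They were taken by name, from their known places in the pathway and with earlier results of these data known. All 10 were listed among the 17432 genes of the deposited table. Livers came from 12 male wild-type C57BL/6J mice aged 8 to 10 weeks, a common inbred strain, after 3 days on a schedule of daytime feeding and fasting at night. By the paper's methods, mice were accustomed to the treadmill with a short run on each of these days. On the day of collection the 6 mice of the Exercise group ran on a treadmill for 3 hours at 14 m/min, starting in the fed state. The 6 mice of the Sedentary group did not run that day. Food was taken away from both groups when the run began, and all livers were collected together when it ended, so the groups share the same hours without food. RNA was taken from whole liver tissue, and in such bulk samples fewer cells of a type and less RNA per cell cannot be told apart.

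Glucagon binds its receptor on hepatocytes, the receptor works through a stimulatory G protein to switch on adenylyl cyclase, and the cyclic AMP that is made releases the catalytic subunits of protein kinase A (PKA) from their regulatory subunits. PKA phosphorylates the transcription factor CREB and restrains the salt-inducible kinases, which allows the coactivator CRTC2 to enter the nucleus and, with CREB, to turn on genes of glucose production in the fasting liver. Phosphodiesterases break down cyclic AMP and end the signal, and several genes of the chain, among them Crem, Sik1, Nr4a1, Pde4b and Pde4d, are themselves known CREB targets.

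CREB recognizes the cyclic AMP response element (CRE), whose full palindrome is TGACGTCA and whose core is TGACG, or CGTCA when read on the other strand. The 250 bases before each transcript start in the RefSeq promoter table (build GRCm38.p6) were searched for the core on both strands, counting overlapping matches. The table held 16 such windows for 7 of the 10 genes. For the other 3, Crem, Crtc2 and Sik1, no window was used. Among all 32851 windows of that length, from 27025 genes, 17.8% held at least 1 core, 3.9% at least 2 and 0.137% at least 4, and 1.55% held the full palindrome. The upstream sequences of Nr4a1, Prkaca and Prkar1a are printed below because they hold the most cores among the windows of the 10 genes, with each core in capitals. The Nr4a1 window (chr15:101266596-101266845, plus strand) holds 4 cores, a number reached by 45 of all windows, and ends just before a transcript start inside the annotated gene. The first Prkaca window (chr8:83972728-83972977, plus strand) holds 2 cores. The fifth of 6 Prkar1a windows lies inside the annotated gene. This window is shown up to the base before the first annotated exon within it (chr11:109650699-109650920, plus strand, 222 bases). It holds 1 separate core and 1 full palindrome, in which 2 cores overlap.
Nr4a1 upstream: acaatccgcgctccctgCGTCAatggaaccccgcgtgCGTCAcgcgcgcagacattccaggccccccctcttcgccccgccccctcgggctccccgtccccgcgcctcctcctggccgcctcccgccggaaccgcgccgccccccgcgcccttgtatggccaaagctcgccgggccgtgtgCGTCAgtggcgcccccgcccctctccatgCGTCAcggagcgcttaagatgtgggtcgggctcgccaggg
Prkaca upstream: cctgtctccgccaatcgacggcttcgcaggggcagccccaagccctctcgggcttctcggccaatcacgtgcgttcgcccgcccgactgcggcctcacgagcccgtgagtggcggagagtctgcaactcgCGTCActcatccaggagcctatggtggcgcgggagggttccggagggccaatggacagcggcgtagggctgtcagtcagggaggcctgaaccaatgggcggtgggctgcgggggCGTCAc
Prkar1a upstream: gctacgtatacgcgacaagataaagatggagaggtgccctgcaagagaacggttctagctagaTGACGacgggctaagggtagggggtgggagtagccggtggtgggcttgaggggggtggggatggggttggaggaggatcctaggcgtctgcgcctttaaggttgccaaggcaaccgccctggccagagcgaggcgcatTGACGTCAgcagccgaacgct
A match describes the letters only, and no binding of CREB was measured in these mice. Counted from the transcript start, the Nr4a1 cores begin at bases -233, -213, -69 and -40, and the palindrome of Prkar1a begins at -49. One window of Pde4b had 1 core, beginning at -34 and within an exon of a longer transcript. A single core was found in each of 2 further Prkar1a windows, of which the fourth overlaps the fifth and shares its core. The windows of Gcgr, Creb1 and Pde4d had none.

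**Figure D1:**
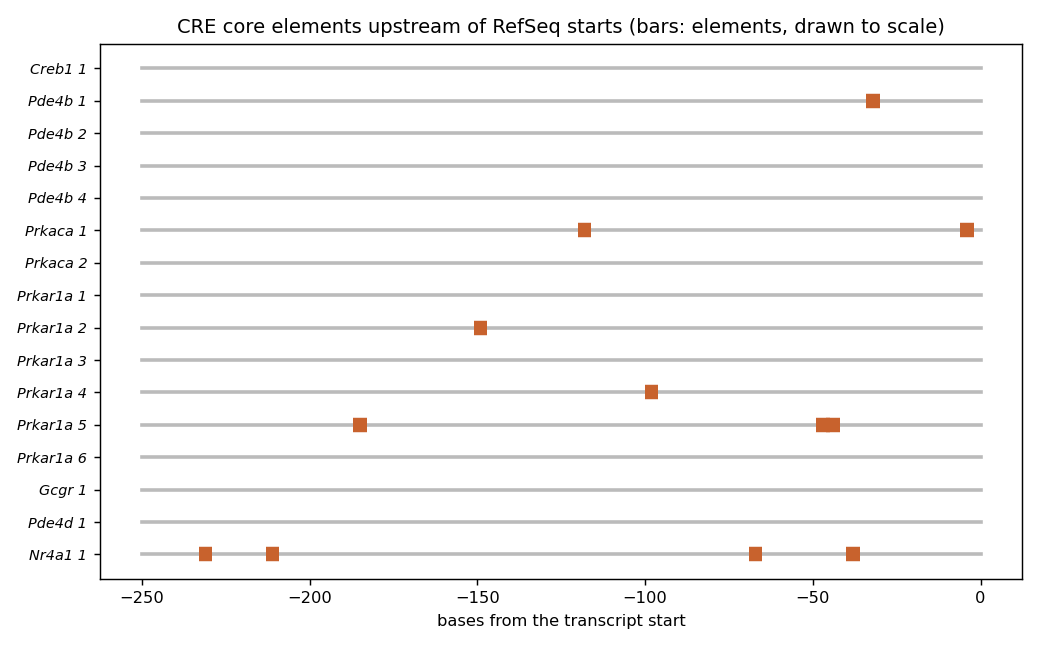
Positions of CRE core elements (bars, 5 bases each, to scale) in the 250 bases upstream of the RefSeq transcript starts of 7 genes, in bases from the start (x axis), 1 line per window and numbered within a gene. The Nr4a1 window carries 4 elements, near its far end and near the start, and 10 of the 16 windows carry none.

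Each library held 18745379 to 19324461 counts. Among the 10 genes, counting error was largest for Nr4a1 and Pde4d. It was also part of the spread of Creb1, at 172 to 331 counts, and of Pde4b in exercised livers, at 107 to 167 counts. Of the 12344 genes with enough counts to test, 42.4% passed the threshold (adjusted p under 0.05 by edgeR's quasi-likelihood test), with 21.1% higher and 21.3% lower after exercise, and the groups did not overlap in 22.3%. With library size alone as the scaling, 32.1% of the calls were higher in place of 49.8%. All 6 hepatocyte markers were expressed, with a summed level of 112310 to 153260 CPM (counts scaled to library size, with TMM factors) in sedentary livers and 141120 to 161610 in exercised livers, and 2 of the 6 rose, including Tat. No marker of Kupffer cells and macrophages (0 of 6), neutrophils (0 of 2 tested), red cells (0 of 5) or lymphocytes (0 of 1 tested) passed edgeR's test, and at an unadjusted p under 0.05 there was 1 red cell gene and 0 of the others. Of 6 markers each, 3 of endothelial cells passed (2 higher and 1 lower), 2 of stellate cells were lower and 1 of cholangiocytes was lower. Cardiac muscle markers fell in 6 of 6 cases, from a summed 11.7 to 25.1 CPM to 0.58 to 1.39 CPM, except for 13.0 CPM in Exercise 1. Of 6 pancreas markers, 4 were at 0 or not listed and none could be tested. The part of these shifts in the results below was not tested.

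All 10 genes, which were chosen with earlier results of these data known, passed the test, against 42.4% of all genes tested. After exercise 6 were higher (Prkar1a, Creb1, Crem, Crtc2, Sik1 and Nr4a1), against 21.1% of all genes, and 4 were lower (Gcgr, Prkaca, Pde4b and Pde4d), against 21.3%. By role, the receptor and the catalytic PKA subunit were lower, the regulatory PKA subunit, the transcription factors, the coactivator, its kinase and the target gene were higher, and both phosphodiesterases were lower. The exercised and sedentary livers did not overlap for 6 of the 10 genes, against 22.3% of all genes. Changes of 2-fold or more were seen for Nr4a1, Pde4b and Pde4d, against 3.94% of all genes, and the median size of the change was 0.50 on the log2 scale for the 10 genes and 0.21 for all genes tested. Without Exercise 1, 9 of the 10 passed, against 5020 of all 12445 genes tested in that fit. Exercise 1 was the only exercised liver with cardiac transcripts in the sedentary range. Leaving it out therefore does not lessen the difference in cardiac transcripts between the groups, whose part was not tested.

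**Figure D2:**
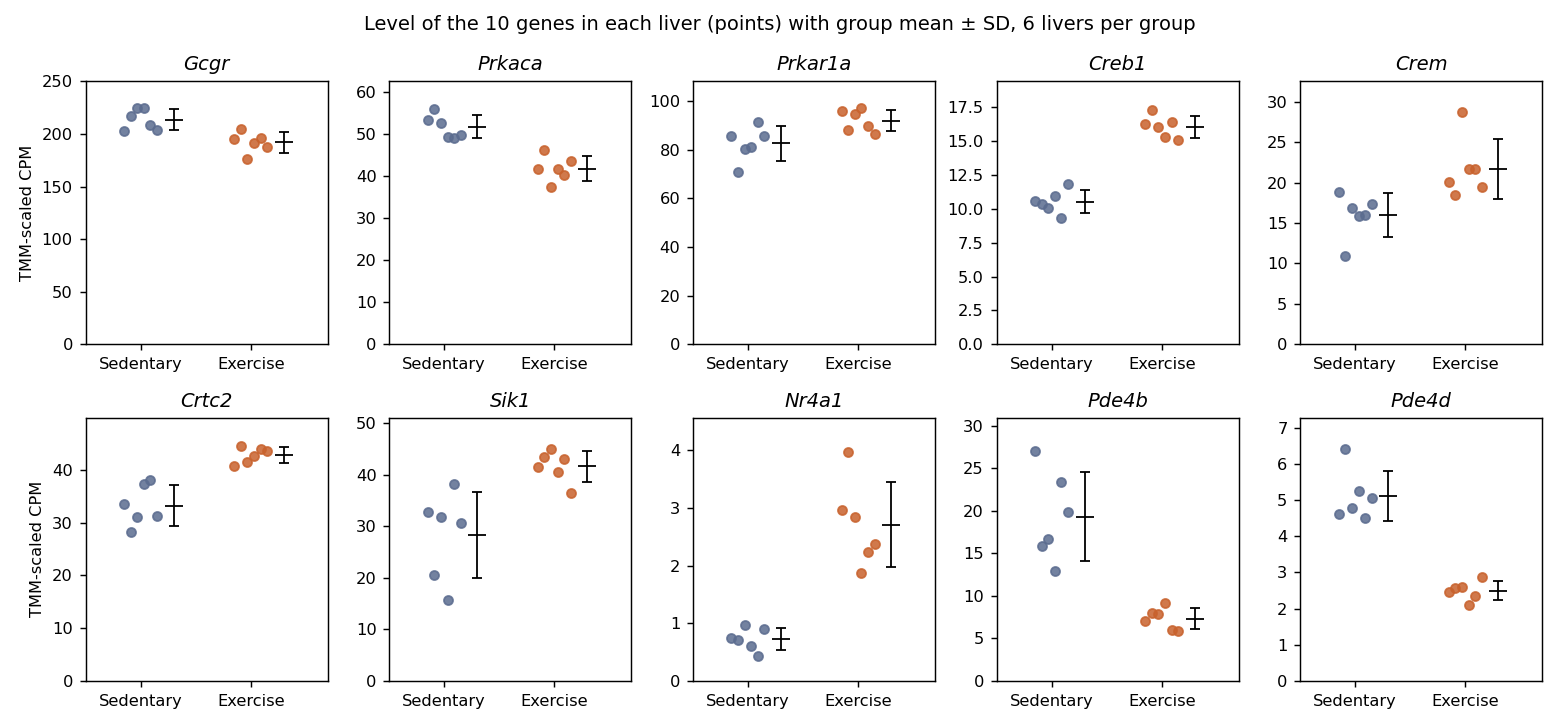
Level of each of the 10 genes in each liver, as TMM-scaled CPM (y axes from 0), with the mean and SD of the 6 livers per group beside the points. The groups are apart for Prkaca, Creb1, Crtc2, Nr4a1, Pde4b and Pde4d, and overlap for Gcgr, Prkar1a, Crem and Sik1.

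**Figure D3:**
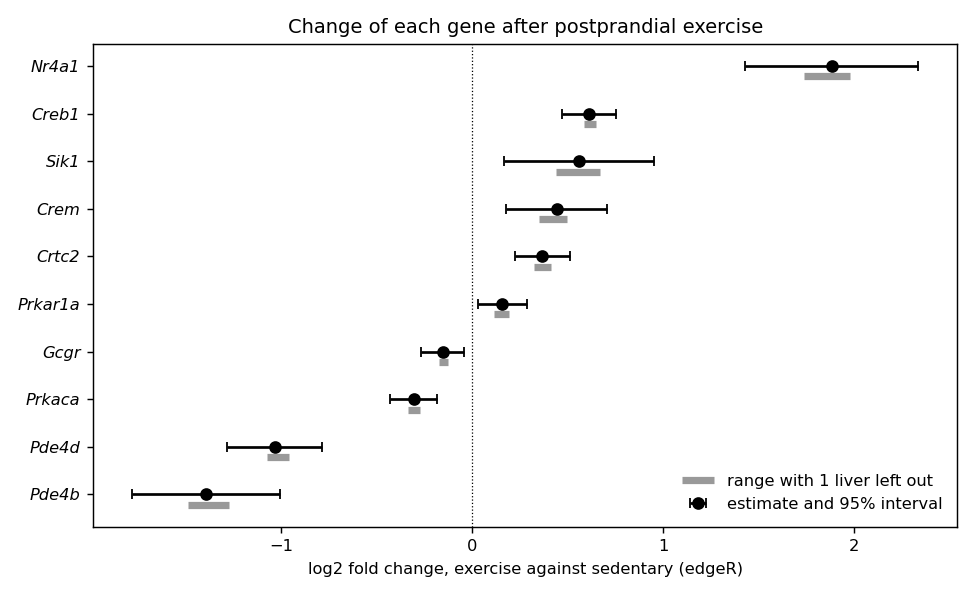
Log2 fold change of each gene, exercise against sedentary (x axis), with the 95% interval from edgeR (black) and the range over 12 fits that each left out 1 liver (grey). Nr4a1 lies highest at 1.88 and Pde4b lowest at -1.40, while the intervals of Gcgr and Prkar1a come close to 0.

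Gcgr encodes the glucagon receptor, a G protein-coupled receptor found mainly on hepatocytes. It was measured at 203 to 225 CPM (median 213) in sedentary livers and at 177 to 205 CPM (median 193) in exercised livers. Of the 6 exercised livers, 5 lay below the lowest sedentary one and 1 lay within the sedentary range. The level was 214 ± 9.92 CPM (SD, n = 6) in the sedentary and 192 ± 9.60 CPM (SD, n = 6) in the exercised group, 0.898 times the sedentary level. Gcgr fell by 0.15 on the log2 scale (SE 0.053, 95% interval -0.27 to -0.043, edgeR adjusted p = 0.0263, two-sided exact permutation p = 0.00649). The call was lost without Sedentary 3 or 4 or Exercise 3, 4 or 6, with log2 fold changes of -0.15 to -0.13 in these fits and edgeR adjusted p of 0.0198 to 0.0728 over all 12. Gcgr (gene ID 14527) lies on chromosome 11 from 120530699 to 120538986 of GRCm38, plus strand, and the antisense gene Gm11789 overlaps its start on the other strand. Whether reads were counted by strand is not given in the sources used here.

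The kinase subunits went opposite ways. Prkaca, the main catalytic subunit gene of PKA, was at 49.2 to 56.0 CPM (median 51.2) in sedentary livers and at 37.4 to 46.1 CPM (median 41.6) in exercised livers. Each exercised liver was below each sedentary liver. Prkaca fell from 51.8 ± 2.76 to 41.8 ± 2.94 CPM (SD, n = 6 each), a log2 fold change of -0.31 (SE 0.058, 95% interval -0.43 to -0.19, edgeR adjusted p = 0.000362). Its exact permutation p was 0.00216, the smallest that 924 relabellings of 12 livers allow, as for each gene below whose groups did not overlap. Prkar1a encodes a regulatory subunit, which holds the catalytic subunit inactive until cyclic AMP binds. It was at 70.6 to 91.6 CPM (median 83.5) in sedentary livers and at 86.6 to 97.1 CPM (median 92.2) in exercised livers, and 3 of 6 exercised livers lay above all sedentary ones. Its log2 fold change was 0.16 (SE 0.061, 95% interval 0.027 to 0.28, edgeR adjusted p = 0.0482, two-sided exact permutation p = 0.0173), and this call was the weakest of the 10. It was lost in 9 of 12 fits with 1 liver left out, all but those without Sedentary 1, Sedentary 5 or Exercise 6, with log2 fold changes of 0.11 to 0.19 and edgeR adjusted p of 0.0168 to 0.114 over the 12. With library size alone as the scaling it was 0.062 (edgeR adjusted p = 0.397), the highest p over its alternatives, which ran from 0.0395. Prkaca (gene ID 18747) lies on chromosome 8 from 83972993 to 83996443 and Prkar1a (gene ID 19084) on chromosome 11 from 109649405 to 109669656 of GRCm38, both on the plus strand.

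Set against each other within a liver, which removes the scaling between libraries, the 2 subunits separated the groups. The count of Prkar1a was 1.26 to 1.86 times that of Prkaca (median 1.63) in sedentary livers and 1.91 to 2.53 times (median 2.26) in exercised livers. The ranges did not overlap, and the difference of 0.47 in the mean log2 ratio had a two-sided exact permutation p of 0.00216 (0.00866 after Benjamini-Hochberg adjustment over 4 ratios). Leaving out each liver in turn kept the difference between 0.40 and 0.51. The ratio is one of messages, and the proteins were not measured.

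Creb1 encodes CREB itself, the factor that PKA phosphorylates. It was at 9.35 to 11.8 CPM (median 10.5) in sedentary livers and at 15.1 to 17.3 CPM (median 16.2) in exercised livers, with no overlap. The level rose 1.53-fold, a log2 fold change of 0.61 (SE 0.068, edgeR adjusted p = 2.1e-06), and the spread within groups was small, with SDs of 0.842 and 0.802 CPM. Crtc2 encodes the CREB coactivator of the liver, which is kept in the cytoplasm while it is phosphorylated. It was at 28.2 to 38.1 CPM (median 32.4) in sedentary livers and at 40.7 to 44.5 CPM (median 43.0) in exercised livers, again with no overlap. Crtc2 rose 1.29-fold (log2 fold change 0.37, SE 0.069, edgeR adjusted p = 0.000348). The exercised livers were close together, with a coefficient of variation of 3.44%, against 11.5% in the sedentary livers. Creb1 (gene ID 12912) lies on chromosome 1 from 64532645 to 64604548 and Crtc2 (gene ID 74343) on chromosome 3 from 90254163 to 90264125 of GRCm38, both on the plus strand.

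Crem encodes activators and, from an internal promoter, the short repressor ICER, which a gene-level count does not separate. It was at 10.9 to 18.8 CPM (median 16.4) in sedentary livers and at 18.5 to 28.7 CPM (median 20.9) in exercised livers. Of the 6 exercised livers, 5 lay above all sedentary ones, and the sixth, Exercise 2, lay just under the highest sedentary liver. Crem rose 1.36-fold (log2 fold change 0.44, SE 0.12, 95% interval 0.18 to 0.71, edgeR adjusted p = 0.00979, two-sided exact permutation p = 0.00433). The lowest sedentary liver and the highest exercised liver both stood away from the rest of their groups. The log2 fold change dropped to 0.35 without Sedentary 2 and to 0.35 without Exercise 3, the lowest values over the 12 fits with 1 liver left out, and passed the test in all 12. The ratio of Crem to Creb1 did not separate the groups (1.05 to 1.77 in sedentary and 1.07 to 1.79 in exercised livers, difference in the mean log2 ratio -0.17, two-sided exact permutation p = 0.292). This difference rested on single livers, at -0.27 without Sedentary 2, -0.25 without Exercise 3 and -0.10 without Exercise 2, with an exact permutation p of 0.0606 to 0.528 over the 12 livers left out in turn. Crem (gene ID 12916) lies on chromosome 18 from 3266048 to 3337748 of GRCm38, minus strand, with 32 annotated coding transcripts of 436 to 2931 bases, and Gm6225 overlaps one end on the other strand.

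Sik1 encodes a salt-inducible kinase that phosphorylates CRTC2 and is itself induced by CREB, which closes a feedback loop. It was at 15.7 to 38.2 CPM (median 31.2) in sedentary livers and at 36.4 to 44.9 CPM (median 42.3) in exercised livers. All exercised livers but Exercise 6 lay above the highest sedentary one, and the sedentary livers were widely spread, with Sedentary 4 at 15.7 CPM and Sedentary 2 at 20.6 CPM. The coefficient of variation was 29.7% in sedentary and 7.19% in exercised livers. Sik1 rose 1.47-fold (log2 fold change 0.56, SE 0.18, 95% interval 0.16 to 0.95, edgeR adjusted p = 0.0265, two-sided exact permutation p = 0.00433). The call was lost without Sedentary 2 (log2 fold change 0.48, edgeR adjusted p = 0.0537) or without Exercise 3 (log2 fold change 0.54, edgeR adjusted p = 0.0512), and over the 12 fits the adjusted p ran from 0.00872 to 0.0537. The change was smallest without Sedentary 4, at 0.44. Within a liver, Sik1 and Crtc2 kept nearly the same median ratio of counts, 0.978 and 0.977, and the difference in the mean log2 ratio of 0.24 did not pass a two-sided exact permutation test (p = 0.314). Without Sedentary 4 that difference was 0.052 (exact permutation p = 0.645). Sik1 (gene ID 17691) lies on chromosome 17 from 31844250 to 31855804 of GRCm38, minus strand.

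Nr4a1 encodes an orphan nuclear receptor, an immediate early gene that cyclic AMP induces in hepatocytes and that acts on genes of glucose production. It had 8 to 19 counts in the sedentary livers and 34 to 76 in the exercised livers. That is 0.435 to 0.968 CPM (median 0.733) against 1.87 to 3.97 CPM (median 2.61), so the lowest exercised liver was above the highest sedentary one. Nr4a1 rose 3.69-fold (log2 fold change 1.88, SE 0.22, 95% interval 1.43 to 2.34, edgeR adjusted p = 2.8e-06), the largest rise of the 10 genes. Over the 12 fits with 1 liver left out the log2 fold change ran from 1.74 to 1.98. It is the gene whose upstream window holds 4 CRE cores, on chromosome 15, where the gene (gene ID 15370) spans 101254269 to 101274795 of GRCm38, plus strand. Whether these cores have a part in its rise was not tested.

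Both phosphodiesterase genes, whose enzymes break down cyclic AMP, fell, whereas the other 3 known CREB targets among the 10 genes rose. Pde4b was at 12.9 to 27.0 CPM (median 18.3) in sedentary livers and at 5.91 to 9.20 CPM (median 7.47) in exercised livers. The groups did not overlap, and the sedentary livers were again the more spread, with Sedentary 1 highest and Sedentary 4 lowest. Pde4b fell to 0.380 times the sedentary level (log2 fold change -1.40, SE 0.18, 95% interval -1.78 to -1.01, edgeR adjusted p = 4.47e-05). Pde4d was at 4.51 to 6.40 CPM (median 4.93) in sedentary livers and at 2.09 to 2.87 CPM (median 2.51) in exercised livers. It fell to 0.488 times the sedentary level without overlap (log2 fold change -1.04, SE 0.12, 95% interval -1.28 to -0.79, edgeR adjusted p = 2.76e-06). The ratio of Pde4b to Pde4d had a median of 3.68 in sedentary and 2.93 in exercised livers, and this difference did not pass (two-sided exact permutation p = 0.21, adjusted p = 0.314 over the 4 ratios). The difference in the mean log2 ratio was -0.35, against -0.22 without Sedentary 1 and -0.19 as a ratio of FPKM. Pde4b (gene ID 18578) spans 102087543 to 102607259 on chromosome 4 of GRCm38. Pde4d (gene ID 238871) spans 108449948 to 109953461 on chromosome 13, and 5 small genes or pseudogenes lie inside it. Both are on the plus strand.

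**Figure D4:**
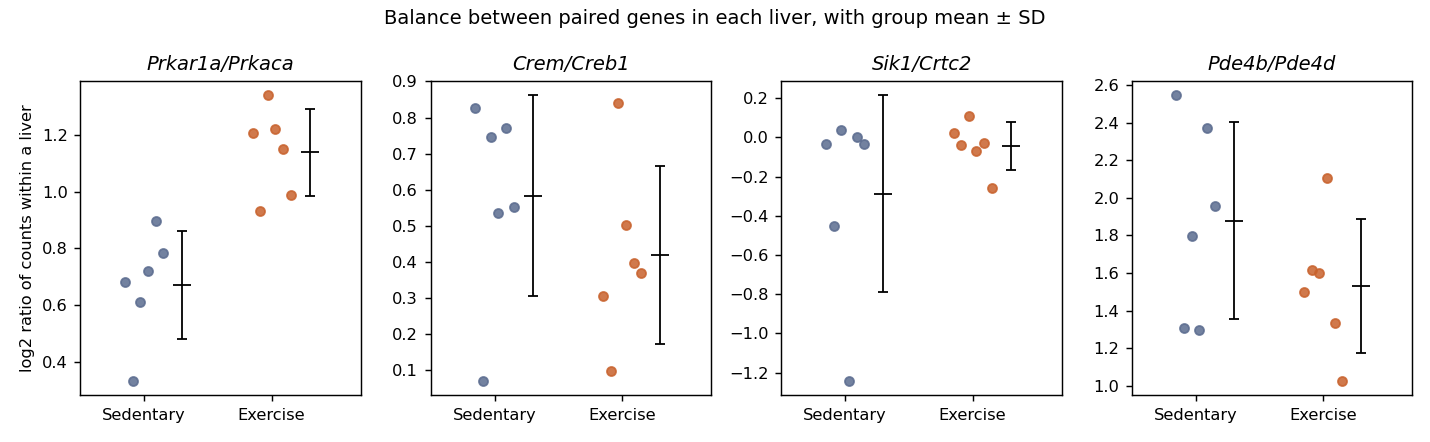
Log2 ratio of counts within each liver (y axis) for 4 pairs of genes, with points for livers and the mean and SD of the 6 livers per group. Prkar1a over Prkaca separates the groups, with medians of 1.63 and 2.26 as ratios, and the other 3 pairs overlap.

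The deposited table also gives each value per length of transcript, as FPKM, which allows levels of different genes to be set side by side. On this scale Gcgr was far above the rest, at 114 ± 7.55 FPKM (SD, n = 6) in sedentary and 96.0 ± 8.08 FPKM (SD, n = 6) in exercised livers. In sedentary livers Prkar1a (25.2 FPKM) and Prkaca (24.1 FPKM) followed, with ranges that overlapped. Then came Crtc2 at 13.2, Crem at 7.34, Sik1 at 6.50, Pde4b at 5.54, Creb1 at 1.60, Pde4d at 0.583 and Nr4a1 at 0.31 FPKM. Of these neighbours, Crem and Sik1 overlapped, as did Sik1 and Pde4b. After exercise the order by mean FPKM began with Gcgr, Prkar1a (26.4), Prkaca (18.1), Crtc2 (16.0), Crem (9.43) and Sik1 (9.00). Below these, Creb1 (2.28) stood above Pde4b (1.99), Nr4a1 came to 1.06 and Pde4d was lowest at 0.188 FPKM. The 4 pairs of Prkaca and Crtc2, Crem and Sik1, Creb1 and Pde4b, and Pde4b and Nr4a1 overlapped. Prkar1a and Prkaca, which overlapped in sedentary livers, did not overlap after exercise on the FPKM scale.

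Within some of the families, the mix of messages also moved. Prkar1a made up 34.1% of the FPKM of the 6 PKA subunit genes in sedentary livers and 39.1% in exercised livers, and Prkaca 32.5% and 26.8%. Of the 4 PDE4 genes, Pde4b led in sedentary livers with 43.9% of their FPKM and ranked behind Pde4c and Pde4a after exercise with 23.5%. Pde4c, another member of that family, led after exercise with 48.7%, against 36.2%, and Pde4d went from 4.72% to 2.26%. The share of Pde4d also depends on the transcript length behind its FPKM, which differed between the groups, as given below. Crtc2 made up 77.1% and 81.9% of the FPKM of the 3 CRTC genes, and Nr4a1 77.5% and 87.6% of that of the 3 NR4A genes. Sik1 made up 37.6% and 36.6% of the FPKM of the salt-inducible kinase genes, so its share stayed close. It was not the leading message of that family in either group: Sik3 was at 8.95 FPKM in sedentary and 13.5 FPKM in exercised livers. These family shares are descriptions and were not tested.

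A count divided by its FPKM and by the library size gives the transcript length that the authors' quantification assigned to the gene in that liver, which moves when the mix of isoforms moves. For 8 of the 10 genes this length was tested, with at least 20 counts and 0.2 FPKM in each liver, and none passed, against 0.99% of 10603 genes (limma, Benjamini-Hochberg adjusted). At an unadjusted p under 0.05 there was 1, Crem, whose implied length was shorter by 1.29% after exercise (limma adjusted p = 0.327). That was the largest shift among the 8. Crem and Sik1 had an exact permutation p under 0.05 (0.0476 and 0.0325), with groups that overlapped and, for Sik1, a shift of -0.197%.

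Pde4d, left out of that test because its FPKM was too low, stood apart when its values were looked at afterwards. Its implied length was 8.37 to 9.92 kb (median 9.4) in sedentary livers and 10.7 to 16.4 kb (median 12.7) in exercised livers. The groups stayed apart when the rounding of FPKM to 2 decimals was allowed for, at most 10.0 kb against at least 10.5 kb. The mean count of Pde4d was 2.23 times as high in sedentary as in exercised livers and its mean FPKM 3.1 times. The size of its fall therefore depended on the unit, while the direction did not. Its counts, 82.83 to 134.15 in sedentary and 38.47 to 52.21 in exercised livers, were not whole numbers, so some reads were shared out by the estimate. These lengths are longer than the 714 to 4207 bases of its 12 coding transcripts in GENCODE vM21, and the annotation behind the table is not given in the sources used here. The other low gene, Nr4a1, had overlapping implied lengths of 2.34 to 2.66 kb and 2.42 to 2.52 kb.

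The wider pathway was counted from lists of 108 genes by role, of which 90 had enough counts to test and 51 passed (56.7%, with 43 higher and 8 lower), against 42.4% of all genes. Among the 80 tested genes outside the 10, 41 passed (51.2%), 37 higher and 4 lower. The median log2 fold change over the 90 was 0.17, against -0.0028 over all genes tested. Because the lists were written with earlier results of these data known, these shares and those by role below are descriptions only.

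Upstream of PKA, 10 of 14 tested receptor and G protein genes passed (71.4%, against 42.4% of all genes), 7 higher and 3 lower. Adrb3, an adrenergic receptor gene whose receptor also signals through cyclic AMP, fell (log2 fold change -0.83, edgeR adjusted p = 0.000199), and Ramp2, a receptor activity-modifying protein gene, rose (0.54, edgeR adjusted p = 7.47e-05). Of 7 tested adenylyl cyclase genes, whose enzymes make cyclic AMP, 3 passed, all higher, a share of 42.9% that is close to the 42.4% of all genes. Adcy9 went from 19.7 ± 2.77 to 33.7 ± 2.70 CPM (SD, n = 6 each) without overlap (log2 fold change 0.78, edgeR adjusted p = 1.53e-06). Adcy1 rose from a low level of 0.536 CPM to 2.50 CPM (log2 fold change 2.20, edgeR adjusted p = 2.78e-05), and Adcy6 rose by less (0.28, edgeR adjusted p = 0.0229).

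Prkaca and Prkar1a were the 2 of 5 tested PKA subunit and inhibitor genes that passed (40.0%, near the 42.4% of all genes). Prkacb, the other catalytic subunit gene, had a log2 fold change of 0.14 (edgeR adjusted p = 0.0999), the inhibitor gene Pkig -0.09 (edgeR adjusted p = 0.355) and the regulatory subunit gene Prkar2a -0.079 (edgeR adjusted p = 0.423). Among 12 genes of A-kinase anchoring proteins, which place PKA within the cell, 2 rose, Akap10 (0.39, edgeR adjusted p = 6.39e-05) and Akap13 (0.32, edgeR adjusted p = 0.00202), a share of 16.7% against 42.4% of all genes. Akap2 was at 0.30 (edgeR adjusted p = 0.0638). In the EPAC branch, where cyclic AMP acts without PKA, 1 of 4 genes passed, Rap1b (0.16, edgeR adjusted p = 0.0447). The log2 fold change was 0.31 for Rapgef4 (edgeR adjusted p = 0.179) and 0.069 for Rap1a (edgeR adjusted p = 0.313). Of 13 tested phosphodiesterase genes 6 passed (46.2%, also near that of all genes), 3 in each direction, and the third to fall beside Pde4b and Pde4d was Pde7b (-0.49), named here after its value was seen. Pde2a (0.51, edgeR adjusted p = 0.000379), Pde1b (0.89, edgeR adjusted p = 0.00251) and Pde7a (0.35, edgeR adjusted p = 0.00593) rose.

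At the CREB end, 6 of 8 genes of the CREB family and its coactivators rose (75.0%, against 21.1% of all genes) and none fell, with a median log2 fold change of 0.40. Beside Creb1, Crem and Crtc2 these were the acetyltransferase coactivator genes Ep300 (0.47, edgeR adjusted p = 4.79e-05) and Crebbp (0.46, edgeR adjusted p = 0.000949) and the CREB relative Atf1 (0.17, edgeR adjusted p = 0.0485). Of 8 genes of CRTC kinases and the CRTC phosphatase calcineurin, 4 rose, against 21.1% of all genes, and none fell. Sik3 rose from 53.5 ± 6.42 to 86.4 ± 8.76 CPM (SD, n = 6 each) without overlap (log2 fold change 0.69, edgeR adjusted p = 4.38e-06), and Sik2 rose by 0.44 (edgeR adjusted p = 0.000396), so all 3 salt-inducible kinase genes were higher. The calcineurin subunit gene Ppp3r1 rose by 0.23 (edgeR adjusted p = 0.00793). The other calcineurin genes listed, Ppp3ca (-0.11), Ppp3cb (-0.090) and Ppp3cc (-0.12), named here after their values were seen, did not pass.

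Of 28 listed CREB target genes, 23 could be tested and 21 passed (91.3%, against 42.4% of all genes), 18 higher and 3 lower, with a median log2 fold change of 0.95. The list was written with earlier results of these data known. It includes Nr4a1, Sik1, Crem, Pde4b and Pde4d, and many of its genes are also known to answer glucocorticoids, insulin or other signals. Tat, the tyrosine aminotransferase gene, rose from 1570 ± 278 to 5566 ± 305 CPM (SD, n = 6 each; log2 fold change 1.83, edgeR adjusted p = 1.04e-09). Junb (1.52, edgeR adjusted p = 7.24e-07), an immediate early gene, and Nfil3 (0.92, edgeR adjusted p = 1.08e-07), a bZIP repressor gene, also rose without overlap. The 3 lower genes were Pde4b, Pde4d and Gadd45a, a growth arrest gene at -1.55 that is named here after its value was seen. Id1 (-0.18) and Rgs2 (0.31), also named afterwards, did not pass. Nr4a2 and Nr4a3, the paralogs of Nr4a1, had too few counts to test.

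**Figure D5:**
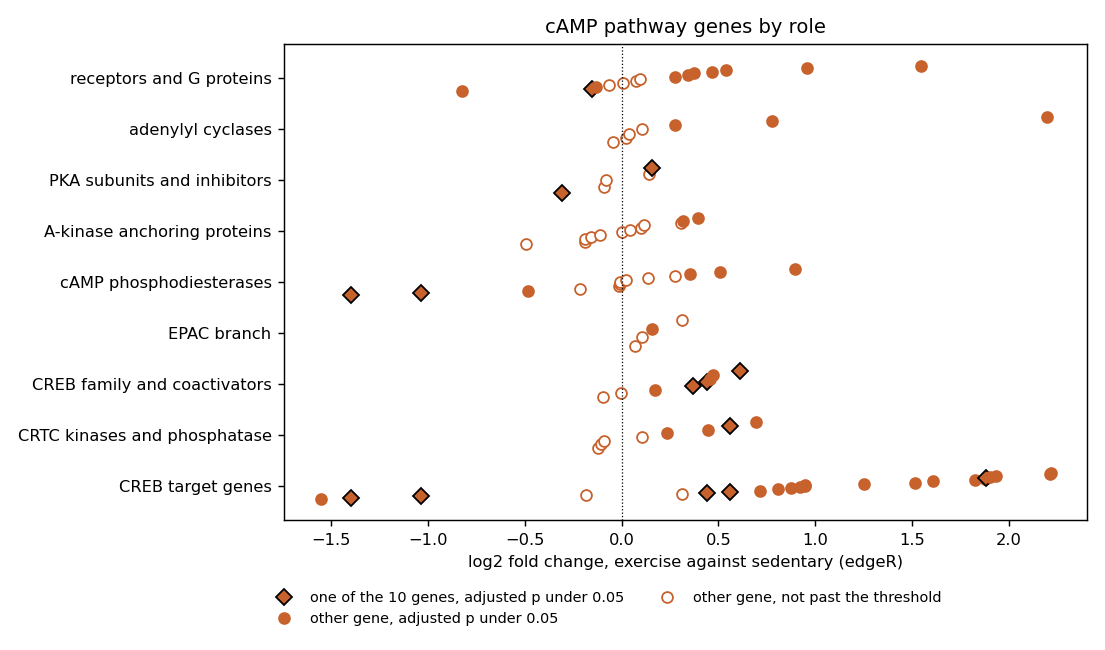
Log2 fold change (x axis) of the 90 tested genes of the cyclic AMP pathway by role (rows, with a gene in 2 lists shown in both), with the 10 genes as diamonds, other genes past the threshold as filled circles and the rest as open circles. The CREB target genes lie mostly to the right, with Pde4b, Pde4d and Gadd45a at the far left.

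The 10 genes differed in how far livers of the same group varied. The SD of log2 CPM within groups was 0.34 for Sik1, larger than for 94.4% of the genes tested, 0.32 for Pde4b (91.9%), 0.28 for Nr4a1 (87.6%) and 0.24 for Crem (80.6%). Gcgr was among the steadiest genes, with an SD of 0.07 that was larger than for 4.46% of genes. The genes whose deviations from the group means followed Sik1 most closely over the 12 livers were Lipa (Pearson r = 0.956, Spearman rho = 0.951), Rassf8 (0.92 and 0.888) and Nfatc1 (0.912 and 0.853). For Pde4b they were Ago1 (r = 0.944, rho = 0.937), Cdh2 (0.93 and 0.902) and Ctnna1 (0.909 and 0.888). Slc5a3 (r = 0.892, rho = 0.839), Mat2a (0.889 and 0.909) and Hikeshi (0.86 and 0.881) followed Nr4a1 most closely. These are the highest of many correlations, the 12 points share their libraries and scaling, and they are descriptions only.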

How the data were processed

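Liver RNA-Seq from 6 sedentary and 6 exercised mice was analysed, with groups from the sample labels and each library from its own mouse. The authors deposited, for 17432 genes, estimated counts (31.3% not whole numbers, not scaled between libraries) and FPKM values, which the authors scaled for length and depth. The submitters' processing notes name Bowtie2 2.3.4.3, RSEM 1.3.1 and mm10. The annotation and strand setting are not given in the sources used here. No pair of 66 was identical, and the chi-square per gene between libraries of a group, 7.94 to 45.19, was above what counting error gives.

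After rounding, edgeR 4.0.16 (run in R 4.3.3) was used with TMM factors of 0.914 to 1.09. Low genes were removed by filterByExpr (minimum count 10), the quasi-likelihood fit was robust with group as its only term, and p-values were adjusted by Benjamini-Hochberg over all 12344 genes tested (threshold 0.05). The biological coefficient of variation was 11.3%. Exact two-sided permutation tests over 924 relabellings compared mean log2(CPM + 0.5). Ratios within a liver used counts plus 0.5. Implied length was log2(count/FPKM), centred on each library's median and tested with limma 3.58.1. The implied length of Pde4d in kb was chosen for a look once its values were known. Both fits were checked first on simulated data. Promoter windows are RefSeq's (GRCm38.p6), and gene positions and exons GENCODE vM21's. Python 3.11.15 with pandas 2.3.3 and scipy 1.17.1 did the rest.

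The 10 genes, the pathway lists and the markers were written by hand and chosen with earlier results of these data known. Named by rule were the 10 genes, the 3 other genes with the smallest p in each role list, and, for the 3 of the 10 with the largest spread within groups, the 3 genes most correlated with each. One gene that the rule names is not reported here. Alternatives were RLE, upper quartile and library size scaling, other filters, DESeq2 1.42.0, limma-voom, limma on log2(FPKM + 0.1), a threshold of 0.01, the replicate number as a block and leaving out each liver.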

Additional observations from a re-analysis of the deposited data

Results flagged for a closer look

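In 82 groups of 6 livers, made of the 10 genes and the other named genes, a lowest or highest liver was checked for a gap to its nearest neighbour that was large for the group's range (Dixon's 95% critical value), which chance gives in about 4.1 such groups. It was found in 3. Crem in Sedentary 2 was at 10.9 CPM, with the next sedentary liver at 15.9 CPM (0.638 of the range). In Exercise 3, Crem reached 28.7 CPM, against 21.7 CPM in the nearest other exercised liver (0.686). Sik3 in Sedentary 2 was at 41.1 CPM, with the next at 52.4 CPM (0.651). Sedentary 2 was also the lowest sedentary liver for Prkar1a and Crtc2 and the second lowest for Sik1.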

How the results depend on the processing

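Between 7 and 10 of the 10 genes passed under 10 alternatives and also when each of the 12 livers was left out in turn (7 without Exercise 3), and no direction changed. Of the pathway genes 41 to 51 passed under the alternatives and 46 to 53 with 1 liver left out. Over all genes, 3581 (threshold of 0.01) to 5502 (library size alone) passed under the alternatives, of 11497 to 17400 tested. With 1 liver left out, 4740 to 5226 passed, of 12400 to 12445 tested. Prkaca, Creb1, Crem, Crtc2, Pde4b and Pde4d kept their calls throughout, and so did Nr4a1 wherever it was tested (a minimum of 10 counts in every liver removed it). At a threshold of 0.01, Gcgr (-0.15), Prkar1a (0.16) and Sik1 (0.56) no longer passed. Prkar1a was also lost with upper quartile factors (0.14), library size alone (0.062), no filter (0.16) and limma on log2(FPKM + 0.1) (0.065). With 1 liver left out, log2 fold changes ran from -0.17 to -0.13 for Gcgr, from 0.11 to 0.19 for Prkar1a and from 0.44 to 0.67 for Sik1. The cause was not tested. Without centring on the library median, 5 of 8 genes passed the test of implied length in place of 0, and Crem shifted by -0.037. Uncentred values also carry the depth of each library, so this count does not single out changes of length. The share of all genes that passed in this setting was not counted. Calls were 49.8% higher over all genes, and 32.1% with library size alone or 31.5% on FPKM.

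Livers of the same number did not clearly deviate together (correlations -0.099 to 0.16, and 2 of 6 matched their own number best). This gives no sign that the numbers pair the mice, but it cannot exclude a pairing. With the replicate number as a block 9 of the 10 genes passed, Prkar1a being lost at 0.16 (edgeR adjusted p = 0.054). In that fit 49 of 90 pathway genes passed, against 4956 of all 12344 genes tested. With liver numbers taken as pairs, the ratio of Prkar1a to Prkaca kept its difference of 0.47 (exact sign-flip p = 0.0312, the smallest that 6 pairs allow). Nr4a1, at 8 to 19 counts in sedentary livers, is the gene most limited by depth.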
